A study of Homo sapiens with 6 samples.

Results

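The genes described are those that encode the proteasome: every protein-coding gene whose symbol is PSMA, PSMB, PSMC, PSMD, PSME, PSMF or PSMG followed by a number. The files held 48 such genes among 60669 annotated genes, and 45 of them passed the filter on low counts, as did 17575 genes in all. They were measured by RNA sequencing of total RNA in 3 groups of 293T cells, a human embryonic kidney line, with 2 libraries in each group. The groups were cells with a PRMT1 knockdown by short hairpin RNA, cells in which CRISPR/Cas9 was used to knock out MLL2, and control cells labelled wild type. The labels name no further treatment in any group. Whether a hairpin was present in control or knockout cells, and whether the knockout cells were a single clone, is not stated, so traits of such a clone cannot be told apart from the knockout. PRMT1 is the main asymmetric arginine methyltransferase of human cells, and MLL2 methylates a lysine of histone H3. The study asked which genes change when either protein is lost.

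The proteasome is the protease that degrades most short-lived and misfolded proteins in the cytosol and nucleus, usually after they have been tagged with ubiquitin chains. Its barrel, the 20S core, is built from outer rings of PSMA (alpha) subunits, which gate the entrance, and inner rings of PSMB (beta) subunits, some of which carry the proteolytic sites. The 19S particle caps the barrel: its PSMC subunits are ATPases that unfold and thread the substrate, and most of its PSMD subunits bind ubiquitin, hold the lid together or remove the ubiquitin chain. PSMG proteins and some PSMD proteins are chaperones that help to assemble the particle and then leave it. PSME proteins are alternative caps that activate the core, and PSMF1 is an inhibitor of the core. In most cells the subunit genes are transcribed together, and the transcription factors NFE2L1 and NFE2L2, which bind antioxidant response elements, raise them when proteasome activity is short. Interferon gamma induces PSMB8, PSMB9 and PSMB10, which replace the constitutive catalytic subunits PSMB5, PSMB6 and PSMB7 for antigen processing, and it also induces the cap subunits PSME1 and PSME2.

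The promoters of 4 members that the results below turn on are shown first, as listed by RefSeq for GRCh38.p14, each from 250 bases before to 50 bases after the start of the gene. They were chosen after the values were seen. PSME1 (chr14:24135944-24136243, plus strand) and PSME2 (chr14:24146561-24146860, minus strand) are neighbours that fell together in the knockdown, and in them the capitals mark matches to the core of the interferon-stimulated response element (GAAA, 2 bases of any kind, GAAA) on either strand. PSMD1 (chr2:231056617-231056916, plus strand), higher in both depletions, and PSMG1 (chr21:39183402-39183701, minus strand), lower in the knockdown, have matches to TGACNNNGC, the core of the antioxidant response element, in capitals. PSME1 (86 bases before the start) and PSME2 (175 bases before it) also match TGACNNNGC, and these matches are left in lower case.
PSME1: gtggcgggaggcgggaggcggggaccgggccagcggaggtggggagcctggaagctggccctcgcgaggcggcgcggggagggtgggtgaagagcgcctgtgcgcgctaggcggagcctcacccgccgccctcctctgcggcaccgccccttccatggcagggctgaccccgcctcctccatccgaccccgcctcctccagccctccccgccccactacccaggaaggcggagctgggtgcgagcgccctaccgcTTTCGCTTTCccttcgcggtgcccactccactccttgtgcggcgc
PSME2: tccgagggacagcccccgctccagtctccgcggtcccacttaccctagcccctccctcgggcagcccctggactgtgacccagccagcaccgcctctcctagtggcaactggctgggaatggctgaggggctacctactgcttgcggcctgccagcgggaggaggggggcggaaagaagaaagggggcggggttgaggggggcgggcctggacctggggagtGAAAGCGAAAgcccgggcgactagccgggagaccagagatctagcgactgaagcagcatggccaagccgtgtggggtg
PSMD1: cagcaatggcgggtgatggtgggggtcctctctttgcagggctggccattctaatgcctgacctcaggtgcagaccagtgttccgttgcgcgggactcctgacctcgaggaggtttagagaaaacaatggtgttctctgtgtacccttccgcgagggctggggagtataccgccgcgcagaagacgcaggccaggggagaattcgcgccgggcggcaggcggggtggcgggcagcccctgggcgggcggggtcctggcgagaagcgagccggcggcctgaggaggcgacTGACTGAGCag
PSMG1: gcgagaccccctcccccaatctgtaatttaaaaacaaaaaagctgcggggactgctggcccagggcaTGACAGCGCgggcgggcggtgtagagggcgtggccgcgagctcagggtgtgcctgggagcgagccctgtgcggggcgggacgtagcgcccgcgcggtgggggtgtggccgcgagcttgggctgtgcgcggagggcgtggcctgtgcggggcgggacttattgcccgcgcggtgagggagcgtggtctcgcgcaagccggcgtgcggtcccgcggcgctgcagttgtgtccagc

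The RefSeq table held promoters of 42 of the 48 members, and both motifs were searched on both strands. TGACNNNGC was found in 13 of the 42, or 31.0%, and in 5 of 26 promoters of constitutive core and cap subunits, or 19.2%, against 13.6% of all 27305 promoters of that length. The interferon response core was found in 6 of the 42, or 14.3%, against 3.65% of all promoters. These 6 belonged to PSMA4, PSMB4, PSMB10, PSME1, PSME2 and PSMG4. In PSME1 the match began 6 bases after the start, on the opposite strand, and in PSME2 28 bases before it. Of the 13 tested members with TGACNNNGC, 4 were higher and 5 lower in the knockdown, and 3 higher and 1 lower in the knockout. Of the 26 tested members whose promoter lacked it, 6 were higher and 5 lower in the knockdown, and 9 higher and 1 lower in the knockout. Over all tested genes, 22.2% were higher and 25.3% lower in the knockdown, and 10.3% and 12.1% in the knockout. A match is a description of these letters and not of a bound site.

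The libraries held 20061471 to 22351532 counts in genes. PRMT1 itself stood at 38.2 and 34.9 CPM in the knockdown, 406 and 425 CPM in the knockout, against 306 and 319 CPM in the control cells. CPM are counts relative to the library total, after scaling of the totals by the trimmed mean of M values (TMM). The name MLL2 has been used for KMT2B and KMT2D. KMT2B had 7.12 and 7.36 CPM in the knockout, against 6.74 and 7.53 CPM in the control cells, and KMT2D 20.8 and 24.2 CPM in the knockout, against 22.5 and 17.03 CPM in the control cells. Neither value checks the knockout label, since an edited gene can still be transcribed. All 7 genes used as markers of this line passed the filter, and none of the 6 immune cell markers did. Of 4 markers of other cell types 1 passed, GFAP. It had 4 and 2 counts in the knockdown, 1 and 8 in the knockout and 17 and 16 in the control libraries. The line markers summed to 1218 and 1135 CPM in the knockdown, 999.6 and 1002 CPM in the knockout, against 1265 and 1254 CPM in the control cells. They did not move together: NEFL had 56.6 and 53.3 CPM in the knockdown, 155.7 and 153 CPM in the knockout, against 347 and 352 CPM in the control cells, while VIM had 751 and 694 CPM in the knockdown, 507 and 512 CPM in the knockout, against 490.3 and 498 CPM in the control cells. PAX2 was near the limit of detection, at 1 to 11 counts a library. The part of these shifts in the results below was not tested. The immune markers, which include PTPRC and CD74, summed to 11 and 1 counts in the knockdown libraries, 2 and 5 in the knockout libraries and 11 and 5 in the control libraries. In bulk RNA, fewer cells with a transcript and less of it per cell cannot be told apart. The labels call the libraries biological replicates, and each p-value measures the spread between such libraries, pooled over the 3 groups.

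Levels of the subunits differed widely, although a core with a cap at each end holds equal numbers of each constitutive subunit. In TPM (counts per exon length, scaled to the same total in every library), the 31 constitutive 20S and 19S subunits had medians of 120 TPM in the knockdown, 136 TPM in the knockout and 106 TPM in the control cells. The highest was PSMB3, a structural beta subunit, with 614 and 570 TPM in the knockdown, 490 and 461 TPM in the knockout and 469 and 454 TPM in the control cells. Next in the control cells came PSMB4 with 439 and 390 TPM, PSMA7 with 422 and 399 TPM, PSMB1 with 390 and 352 TPM and PSMB5 with 322 and 304 TPM. Between these neighbours the library values overlapped for PSMB4 and PSMA7 and lay apart for the others. The exon length is that of all annotated exons of a gene together, not of the transcript expressed, and the order in TPM depends on it. PSMA4, with 6994 bases, had control means of 363 CPM and 116 TPM. PSMB5, with 1549 bases, had 218 CPM and 313 TPM.

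At the low end stood PSMA2, with 8.25 and 7.73 TPM in the knockdown, 7.54 and 8.15 TPM in the knockout and 6.87 and 4.91 TPM in the control cells. PSMA6 was as low, at 7.83 and 7.58 TPM in the knockdown, 7.68 and 7.26 TPM in the knockout and 5.99 and 6.49 TPM in the control cells. Both genes, like PSMA1 (29.1 and 31.4 TPM in the control cells), share exon bases on the same strand with another annotated gene: 14.8% of the bases of PSMA2, 14.1% of PSMA6 and 24.7% of PSMA1. A read pair that falls on more than 1 gene is left out by the counting options in the file headers. The part of this in the low levels was not tested. The other 28 constitutive subunits share under 1%, and their control means ran from 27.0 TPM for PSMD11 to 461 TPM for PSMB3. Subunit genes with processed pseudogenes can also lose reads that map to several places, since pairs of low mapping quality were not counted, so an order of levels between subunits is uncertain.

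**Figure D1:**
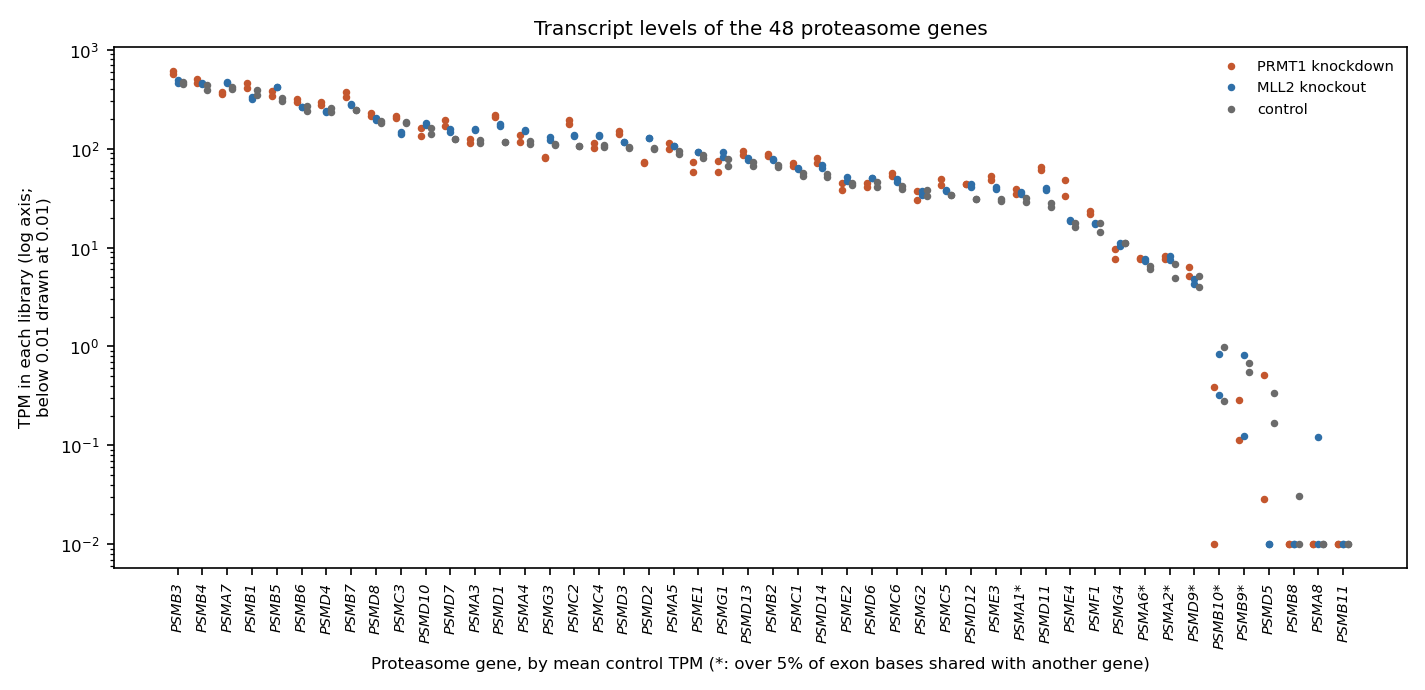
TPM of the 48 proteasome genes (log axis, values below 0.01 drawn at 0.01) in each of the 6 libraries, ordered by the mean of the control libraries from left to right; colours mark PRMT1 knockdown, MLL2 knockout and control. Constitutive subunits lie between PSMB3 at 461 TPM and PSMA2 at 5.89 TPM in the control mean, and the inducible subunits, PSMD5, PSMA8 and PSMB11 lie below 1 TPM; a star marks genes with over 5% of exon bases shared with another gene.

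Interferon-inducible and tissue-specific subunits were barely read in any group. PSMB8, which replaces PSMB5, had 0 and 0 counts in the knockdown, 0 and 0 in the knockout and 0 and 1 in the control libraries. PSMB9, which replaces PSMB6, had 3 and 8 counts in the knockdown, 4 and 24 in the knockout and 16 and 21 in the control libraries. PSMB10, which replaces PSMB7, had 5 and 0 counts in the knockdown, 5 and 12 in the knockout and 4 and 15 in the control libraries. The knockdown libraries held the fewest PSMB9 counts on average, but neither PSMB9 (adjusted p = 0.102) nor PSMB10 (adjusted p = 0.193) passed edgeR's test against control. The constitutive catalytic subunits together had 13674 and 12930 counts in the knockdown, 14548 and 13380 in the knockout and 11676 and 11743 in the control libraries. PSMA8, the alpha subunit of the testis, had 2 counts in knockout replicate 2 and 0 elsewhere. PSMB11, the catalytic subunit of the thymic cortex, had 0 counts in all 6 libraries. PSMA8, PSMB8 and PSMB11 are the members that failed the filter.

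In the MLL2 knockout, proteasome genes were more often higher than lower, and by small amounts. Of the 45 tested members, 12 were called higher, or 26.7%, against 10.3% of all tested genes, and 2 were called lower, or 4.44%, against 12.1%. In either direction 22.4% of all tested genes were called, and among protein-coding genes 27.5%, with 12.9% higher and 14.6% lower. The median log2 change of the tested members was 0.15, against -0.01 over all genes tested. Abundant genes were called higher more often: among the 6357 genes with an average log2 CPM over 5 the shares were 20.9% higher and 12.1% lower, and among the 39 members above that level 12 (30.8%) were higher and 1 (2.56%) lower. The knockout libraries both lay above both control libraries for 31 members, against 30.1% of all genes, and both below for 5, against 32.5%. Together the 31 constitutive subunits summed to 6638 and 6438 CPM in the knockout, against 5851 and 5811 CPM in the control cells, so that the groups did not overlap. The members called were PSMD1, PSMD11, PSMD12, PSMB5, PSMA3, PSMA4, PSME3, PSMC4, PSMC2, PSMD2, PSMD14 and PSMD7 (higher), and PSMC3 and PSMD5 (lower). The counts of members called depended on single libraries, and so did the counts over all tested genes. Without each library in turn, the log2 changes of the 12 members called higher stayed between 0.22 (PSMD7) and 0.56 (PSMD1). That of PSMC3 stayed between -0.42 and -0.38. The spread of the PRMT1 knockdown libraries enters the pooled error. A fit of knockout and control libraries alone gave 20 members higher, with 5386 genes called against 3941 in the fit of all libraries. PSMD1, PSMD11, PSMD12 and PSMC3 were called under all 14 alternatives, and each of the other 10 calls was lost without at least 1 library.

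In the PRMT1 knockdown, members moved both ways and by larger amounts. Of the 45 tested members, 11 were called higher, or 24.4%, against 22.2% of all tested genes, and 12 were called lower, or 26.7%, against 25.3%. In either direction 47.4% of all tested genes were called, and among protein-coding genes 54.7%, with 24.6% higher and 30.1% lower. The members' shares lie close to these. Above an average log2 CPM of 5, 11 of the 39 members (28.2%) were higher and 12 (30.8%) lower, against 33.6% and 31.2% of all genes at that level. The members' median log2 change was -0.01, against -0.04 over all genes tested. Both knockdown libraries lay above both control libraries for 14 members, against 35.0% of all genes, and below for 13, against 38.5%. The sum over the 31 constitutive subunits was 6454 and 5647 CPM in the knockdown and 5851 and 5811 CPM in the control cells, so that the groups overlapped. The knockdown libraries differed from each other: the median member was lower in replicate 2 by a log2 difference of -0.19, against -0.01 for all genes. For the members it was -0.02 between the knockout and -0.01 between the control libraries. The knockdown difference moved with exon length in other genes (average log2 CPM over 2) too. Their medians were -0.17 from 1000 to 2000 bases, -0.12 from 2000 to 4000, -0.03 from 4000 to 8000 and 0.09 above. The members of these lengths had -0.19, -0.26, -0.16 and 0.22. Without PRMT1 knockdown replicate 1, 6 members were higher and 16 lower, and without PRMT1 knockdown replicate 2, 13 were higher and 5 lower. Without control replicate 1 the numbers were 6 higher and 6 lower, and without control replicate 2 they were 5 higher and 8 lower. PSMC2, PSMD1, PSMD2, PSMD11, PSME1, PSME3, PSME4, PSMG3 and PSMG4 were called under all 14 alternatives.

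**Figure D2:**
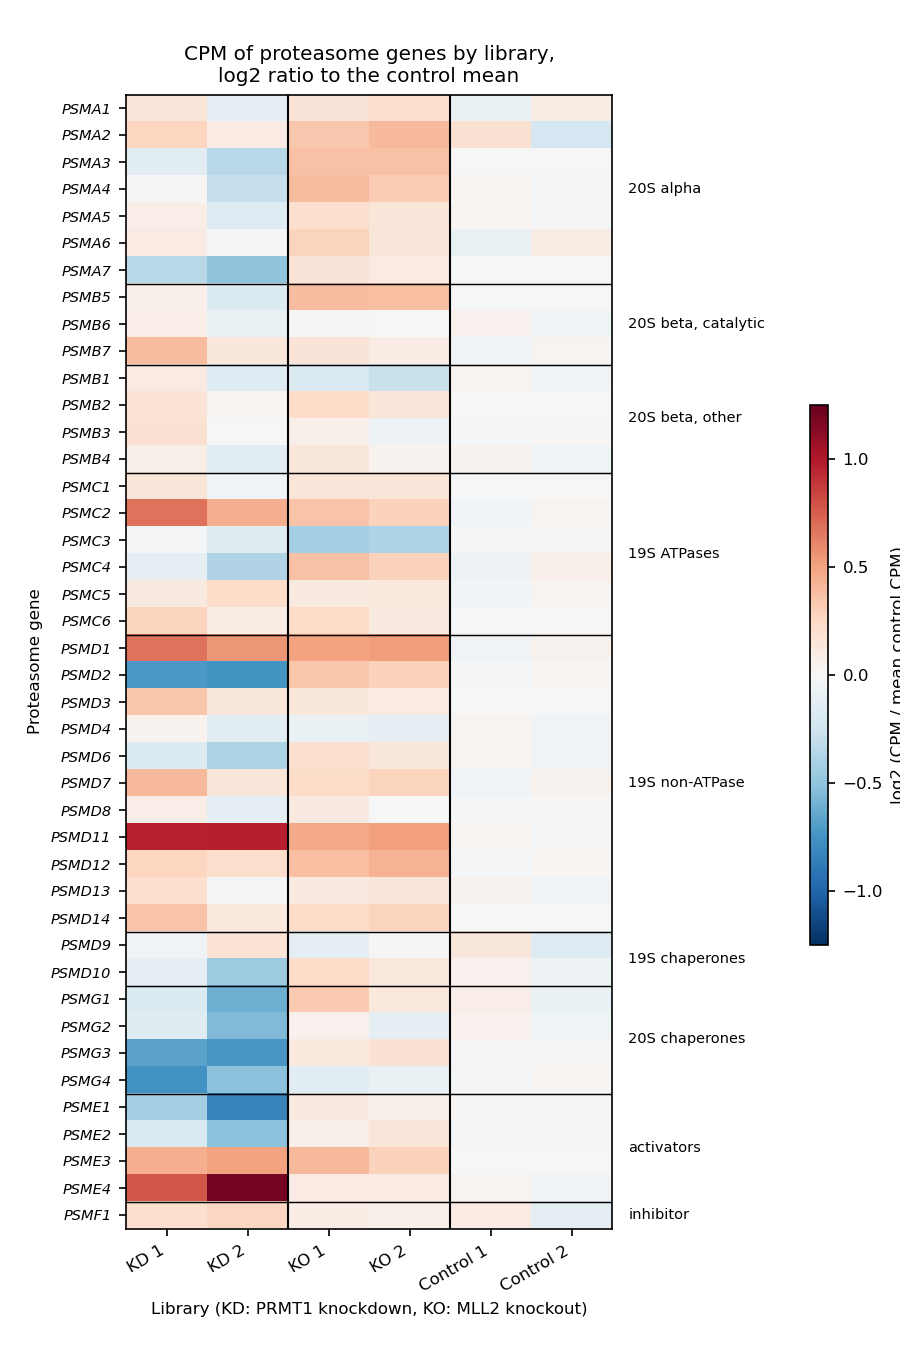
log2 ratio of CPM to the mean of the control libraries for 42 proteasome genes (rows, by role) in the 6 libraries (columns), red for higher and blue for lower. PSMD11, PSMD1 and PSMC2 are red in the knockdown and knockout libraries, PSMD2 is blue in the knockdown and red in the knockout, and the 20S chaperones are blue in the knockdown; PSMD5, PSMA8, PSMB8 to PSMB11 are too low to be drawn.

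Set directly against the knockout, the knockdown had 5 members called higher, or 11.1%, against 19.4% of all tested genes, and 13 called lower, or 28.9%, against 21.4%. In either direction 40.7% of all tested genes were called, and among protein-coding genes 47.7%, with 21.4% higher and 26.2% lower. Above an average log2 CPM of 5, 4 of the 39 members (10.3%) were higher and 13 (33.3%) lower, against 25.0% and 33.1% of all genes at that level, so the share called lower is close to the background there. The members' median log2 difference was -0.09, against 0.01 over all genes tested. Both knockdown libraries lay below both knockout libraries for 20 members, against 35.1% of all genes, and above for 9, against 34.9%. The comparisons with control share the control libraries, so this contrast is the one that tests a difference between the depletions. Against control, 7 members were called higher in both depletions: PSMC2, PSMD1, PSMD7, PSMD11, PSMD12, PSMD14 and PSME3. A further 3, PSMA3, PSMC4 and PSMD2, were higher in the knockout and lower in the knockdown. All 3 were also called lower in the knockdown than in the knockout. Of the 7, only PSMD1 and PSMD11 kept both calls against control under all 14 alternatives, and none of the 3 did. The share of all tested genes called in both depletions is not given here, so neither count is read as an excess. Of the 18 calls between the depletions, 14 held under all 14 alternatives. The low count of members called higher did not: it was 11 after the correction of the counts for exon length and GC content, with 13 lower, and 2 to 9 when each library was left out in turn.

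Among the alpha subunits, which gate the core, 2 of 7 were higher in the knockout and 2 of 7 lower in the knockdown. These shares were 10.3% and 25.3% over all tested genes. They were 20.9% and 31.2% among genes with an average log2 CPM over 5, so both counts are near the background there. PSMA3 had 149 and 130 CPM in the knockdown, 212 and 212 CPM in the knockout, against 166 and 164 CPM in the control cells. It rose in the knockout by a log2 change of 0.36 ± 0.09 (SE, adjusted p = 0.00403) and fell in the knockdown (-0.24 ± 0.09, adjusted p = 0.0242), with a log2 difference of -0.61 ± 0.09 between knockdown and knockout (adjusted p = 8.87e-06). The 3 groups did not overlap. Without PRMT1 knockdown replicate 2 the change in the knockdown was -0.14 and no longer called. PSMA4 had 367 and 297 CPM in the knockdown, 477 and 452 CPM in the knockout, against 368 and 358 CPM in the control cells. It was higher in the knockout (0.36 ± 0.09, adjusted p = 0.00743), while the knockdown and control libraries overlapped (-0.13 ± 0.09, adjusted p = 0.260). PSMA7, the alpha subunit with the highest level, had 254 and 227 CPM in the knockdown, 361 and 347 CPM in the knockout, against 323 and 322 CPM in the control cells, a fall in the knockdown of -0.42 ± 0.08 (adjusted p = 2.34e-04). When the counts were corrected for exon length and GC content, that change was -0.13 and not called. PSMA1, PSMA2, PSMA5 and PSMA6 were called in neither depletion, at log2 changes of -0.04 to 0.19 in the knockdown and 0.17 to 0.38 in the knockout.

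The catalytic beta subunits differed from each other. PSMB5, which carries the chymotrypsin-like site and is the target of bortezomib, had 227 and 194 CPM in the knockdown, 284 and 281 CPM in the knockout, against 218 and 217 CPM in the control cells. It rose in the knockout (0.38 ± 0.09, adjusted p = 0.00300) and was lower in the knockdown than in the knockout (-0.43 ± 0.09, adjusted p = 4.28e-04), a difference that was not called after the GC and length correction (-0.15). PSMB7, with the trypsin-like site, had 258 and 218 CPM in the knockdown, 221 and 210 CPM in the knockout, against 193 and 202 CPM in the control cells. Its rise in the knockdown was 0.27 ± 0.09 (adjusted p = 0.0146), and 0.14 and not called without PRMT1 knockdown replicate 1. PSMB6, with the caspase-like site, had 175 and 155 CPM in the knockdown, 167 and 165 CPM in the knockout, against 171 and 159 CPM in the control cells, and was called in neither (log2 changes 0.00 in both).

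None of the 4 structural beta subunits was called against control. PSMB1 had 396 and 329 CPM in the knockdown, 326 and 305 CPM in the knockout, against 379 and 360 CPM in the control cells (-0.23 ± 0.09 in the knockout, adjusted p = 0.0742). Both knockout libraries lay below both control libraries. PSMB1 was called lower in the knockout under 6 of the 14 alternatives, at -0.35 (adjusted p = 3.44e-04) after the GC and length correction. It lies on chromosome 6 at 170.5 Mb. The 15 tested non-member genes within 5 Mb, with an average log2 CPM over 2, had a median log2 change of -0.44 in the knockout. PSMB2, PSMB3 and PSMB4 had log2 changes of -0.03 to 0.10 in the knockdown and 0.00 to 0.19 in the knockout, and PSMB3 was called higher in the knockdown (0.43) after the correction.

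The 6 ATPases of the cap split by gene. PSMC2 had 268 and 230 CPM in the knockdown, 216 and 205 CPM in the knockout, against 164 and 172 CPM in the control cells. It rose in the knockdown (0.57 ± 0.09, adjusted p = 1.73e-05) and in the knockout (0.32 ± 0.09, adjusted p = 0.0101), and the groups did not overlap. PSMC4 had 112 and 93.3 CPM in the knockdown, 156 and 148 CPM in the knockout, against 116 and 126 CPM in the control cells. It was higher in the knockout (0.33 ± 0.09, adjusted p = 0.0151) and lower in the knockdown (-0.24 ± 0.09, adjusted p = 0.0453). The call in the knockout was lost without any 1 of the 4 libraries compared (adjusted p = 0.0504 to 0.190). That in the knockdown was lost under 11 of the 14 alternatives. The change was -0.11 and not called without PRMT1 knockdown replicate 2, and -0.01 and not called after the GC and length correction, while the difference of knockdown from knockout was -0.57 ± 0.09 (adjusted p = 6.22e-05) and -0.36 after the correction.

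PSMC3 was the ATPase that fell in the knockout. It had 187 and 170 CPM in the knockdown, 141 and 144 CPM in the knockout, against 186 and 191 CPM in the control cells, a change of -0.40 ± 0.08 in the knockout (1.32-fold lower, adjusted p = 0.00137). Knockdown and control libraries overlapped (-0.08 ± 0.08, adjusted p = 0.458). PSMC3 lies on chromosome 11 at 47.4 Mb. Tested genes other than members within 5 Mb, with an average log2 CPM over 2, numbered 41. Their median log2 change was -0.50 in the knockout and -0.06 in the knockdown. The part of that stretch in the fall of PSMC3 was not tested. PSMC1, PSMC5 and PSMC6 were called in neither depletion, at 0.06 to 0.19 in the knockdown and 0.12 to 0.18 in the knockout.

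Of the 11 non-ATPase subunits of the cap, 6 were higher and 2 lower in the knockdown, beside 22.2% and 25.3% of all tested genes. In the knockout 6 were higher and none lower, beside 10.3% and 12.1%. Among genes with an average log2 CPM over 5, 33.6% were higher in the knockdown and 20.9% in the knockout. PSMD11, a lid subunit whose level is known to set how much assembled proteasome human embryonic stem cells have, had 167 and 168 CPM in the knockdown, 119 and 122 CPM in the knockout, against 86.9 and 84.5 CPM in the control cells. It rose 1.96-fold in the knockdown (0.97 ± 0.08, adjusted p = 7.61e-09) and 1.41-fold in the knockout (0.49 ± 0.08, adjusted p = 2.39e-04). The groups did not overlap, and knockdown exceeded knockout (0.48 ± 0.08, adjusted p = 7.98e-05). PSMD1, a large scaffold of the cap's base, had 434 and 398 CPM in the knockdown, 385 and 390 CPM in the knockout, against 263 and 280 CPM in the control cells. Both rises were called, by 1.53-fold in the knockdown (0.62 ± 0.08, adjusted p = 2.59e-06) and 1.43-fold in the knockout (0.51 ± 0.08, adjusted p = 1.23e-04).

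PSMD2, the other large scaffold and a docking site for ubiquitin shuttles, did the opposite in the depletions. It had 135 and 133 CPM in the knockdown, 284 and 272 CPM in the knockout, against 220 and 227 CPM in the control cells. In the knockdown it fell 1.67-fold (-0.74 ± 0.08, adjusted p = 1.99e-07), and in the knockout it rose 1.24-fold (0.32 ± 0.08, adjusted p = 0.00609). The difference of knockdown from knockout was -1.05 ± 0.08 (2.07-fold lower, adjusted p = 2.96e-09). After the GC and length correction the changes were -0.65 in the knockdown and 0.38 in the knockout. Among the 39 members with an average log2 CPM over 5, this was the largest difference between the depletions.

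Among the remaining lid subunits, PSMD12 had 89.4 and 86.03 CPM in the knockdown, 96.1 and 100.2 CPM in the knockout, against 72.8 and 75.4 CPM in the control cells. It rose in the knockout (0.41 ± 0.09, adjusted p = 0.00202) and in the knockdown (0.24 ± 0.09, adjusted p = 0.0269). The call of PSMD12 in the knockdown was lost under 6 of the 14 alternatives, among them the GC and length correction (0.17). PSMD14, the deubiquitinase that cleaves the chain off the substrate, had 226 and 191 CPM in the knockdown, 208 and 213 CPM in the knockout, against 177 and 175 CPM in the control cells. PSMD7, its partner in the lid, had 201 and 168 CPM in the knockdown, 178 and 183 CPM in the knockout, against 147 and 156 CPM in the control cells. Both were called higher in both depletions, by 0.24 and 0.29 in the knockdown and 0.26 and 0.26 in the knockout (each ± 0.09), with adjusted p between 0.0120 and 0.0463. In the knockdown both calls were lost without PRMT1 knockdown replicate 1 (0.11 for PSMD14 and 0.15 for PSMD7), and the GC and length correction ended both calls of PSMD14 (0.13 in the knockdown and 0.18 in the knockout).

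PSMD3, another lid subunit, rose in the knockdown, with 290 and 252 CPM in the knockdown, 253 and 245 CPM in the knockout, against 228 and 229 CPM in the control cells (0.25 ± 0.08, adjusted p = 0.0201). Its difference between the depletions was not called (0.12 ± 0.08, adjusted p = 0.259), and without PRMT1 knockdown replicate 1 its rise was 0.13 and not called. PSMD6 fell in the knockdown, at 158 and 136 CPM against 204 and 195 CPM in the knockout, against 182 and 172 CPM in the control cells (-0.27 ± 0.09, adjusted p = 0.0137). That change was -0.17 and not called without PRMT1 knockdown replicate 2, and -0.43 after the GC and length correction. PSMD4, a ubiquitin receptor, PSMD8 and PSMD13 were called in neither, at -0.04 to 0.10 in the knockdown and -0.09 to 0.13 in the knockout.

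**Figure D3:**
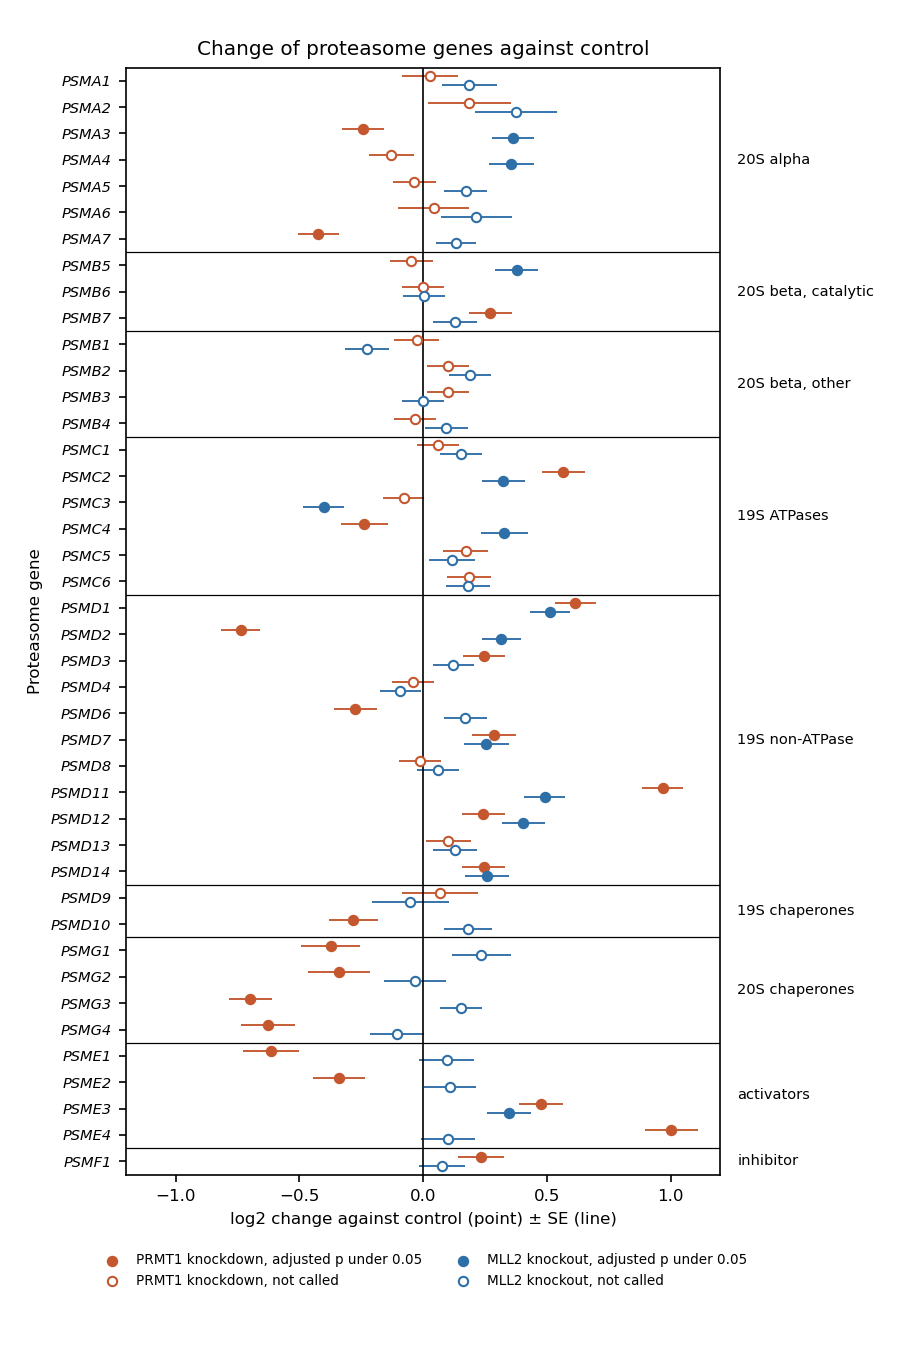
log2 change against control (points) with its SE (lines) for 42 proteasome genes by role, PRMT1 knockdown above MLL2 knockout in each row; filled points had an adjusted p under 0.05. Knockdown points run from -0.74 for PSMD2 to 1.004 for PSME4 and knockout points from -0.40 for PSMC3 to 0.51 for PSMD1.

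All 4 assembly chaperones of the core were called lower in the knockdown, 2 of them (PSMG3 and PSMG4) under all 14 alternatives. Over all tested genes, 25.3% were called lower in the knockdown. PSMG1 and PSMG2 form a pair that places alpha subunits, and PSMG3 and PSMG4 form a second pair. PSMG3 had 61.5 and 59.0 CPM in the knockdown, 106 and 111 CPM in the knockout, against 96.8 and 98.6 CPM in the control cells, a 1.62-fold fall in the knockdown (-0.70 ± 0.09, adjusted p = 1.42e-06). PSMG4 had 30.8 and 36.5 CPM in the knockdown, 47.4 and 49.3 CPM in the knockout, against 51.05 and 52.9 CPM in the control cells, a 1.54-fold fall (-0.63 ± 0.11, adjusted p = 7.75e-05). These falls were -0.38 and -0.70 after the GC and length correction.

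PSMG1 had 61.7 and 45.5 CPM in the knockdown, 87.05 and 76.2 CPM in the knockout, against 73.2 and 65.4 CPM in the control cells (-0.37 ± 0.12, adjusted p = 0.0143). PSMG2 had 39.6 and 30.2 CPM in the knockdown, 45.8 and 40.5 CPM in the knockout, against 45.8 and 42.4 CPM in the control cells (-0.34 ± 0.13, adjusted p = 0.0312). For both, knockdown replicate 2 was the lowest library of the 6. Without it their changes were -0.17 and -0.15 and not called, and after the GC and length correction they were -0.22 and -0.16 and not called. In the knockout none of the 4 was called, at -0.11 to 0.24. Against the knockout, PSMG1 (-0.61 ± 0.12), PSMG3 (-0.85 ± 0.09) and PSMG4 (-0.52 ± 0.11) were called lower in the knockdown, with adjusted p of 3.43e-04, 1.58e-07 and 6.77e-04, and PSMG2 was not (-0.31 ± 0.13, adjusted p = 0.0561).

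Chaperones of the cap gave a fall of PSMD10, also known as the oncoprotein gankyrin, in the knockdown and a loss of reads of PSMD5 in the knockout. PSMD10 had 149 and 118 CPM in the knockdown, 190 and 177 CPM in the knockout, against 169 and 156 CPM in the control cells (-0.28 ± 0.10 in the knockdown, adjusted p = 0.0234). Without PRMT1 knockdown replicate 2 that change was -0.12 and not called. PSMD5 had 1 and 19 counts in the knockdown, 0 and 0 in the knockout and 13 and 7 in the control libraries. PSMD5 was called lower in the knockout than in control (adjusted p = 0.0268). With 3 counts per library as the floor in the knockout, it lay at least 3.47-fold below the control mean. That bound covers counting error in the knockout only and takes the control mean, from 13 and 7 counts, as exact. The call was lost without any 1 of the 4 libraries compared, and the knockdown libraries lay on either side of the control libraries. PSMD9 was called in neither depletion.

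The alternative caps split in the knockdown: PSME4 and PSME3 rose, and PSME1 and PSME2 fell. PSME4, the large nuclear activator known as PA200, had 134 and 180 CPM in the knockdown, 84.4 and 84.1 CPM in the knockout, against 80.5 and 76.5 CPM in the control cells. Its rise in the knockdown was 2.005-fold (1.004 ± 0.11, adjusted p = 1.88e-07), from 0.77 without PRMT1 knockdown replicate 2 to 1.19 without PRMT1 knockdown replicate 1. It was higher in the knockdown than in the knockout as well (0.90 ± 0.11, adjusted p = 1.10e-06), where it was not called (0.10 ± 0.11, adjusted p = 0.557). PSME3, the nuclear PA28 gamma subunit, had 96.2 and 99.6 CPM in the knockdown, 93.5 and 85.9 CPM in the knockout, against 70.3 and 70.6 CPM in the control cells. It rose in the knockdown (0.48 ± 0.09, adjusted p = 1.55e-04) and in the knockout (0.35 ± 0.09, adjusted p = 0.00728).

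PSME1 and PSME2 encode the alpha and beta subunits of PA28, and their promoters, printed above, lie close together on chromosome 14. PSME1 had 49.5 and 37.5 CPM in the knockdown, 72.02 and 70.01 CPM in the knockout, against 67.2 and 65.7 CPM in the control cells, a 1.53-fold fall in the knockdown (-0.61 ± 0.11, adjusted p = 1.37e-04). PSME2 had 62.2 and 49.6 CPM in the knockdown, 73.8 and 78.6 CPM in the knockout, against 69.97 and 71.5 CPM in the control cells (-0.34 ± 0.11, adjusted p = 0.0112). Both knockdown libraries lay below the other 4 for both genes, replicate 2 lowest. The fall of PSME1 was -0.42 without PRMT1 knockdown replicate 2 and -0.35 after the GC and length correction, and stayed called. That of PSME2 was -0.18 without that library, -0.33 without control replicate 2 and -0.22 after the correction, and was called in none of these. Within 5 Mb of this pair lay 64 tested non-member genes with an average log2 CPM over 2. Their median log2 change in the knockdown was -0.27. PSMF1, the core inhibitor, had 86.6 and 89.1 CPM in the knockdown, 79.5 and 78.1 CPM in the knockout, against 80.3 and 69.1 CPM in the control cells. Its rise in the knockdown (0.23 ± 0.09, adjusted p = 0.0452) was 0.12 and not called without control replicate 2.

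**Figure D4:**
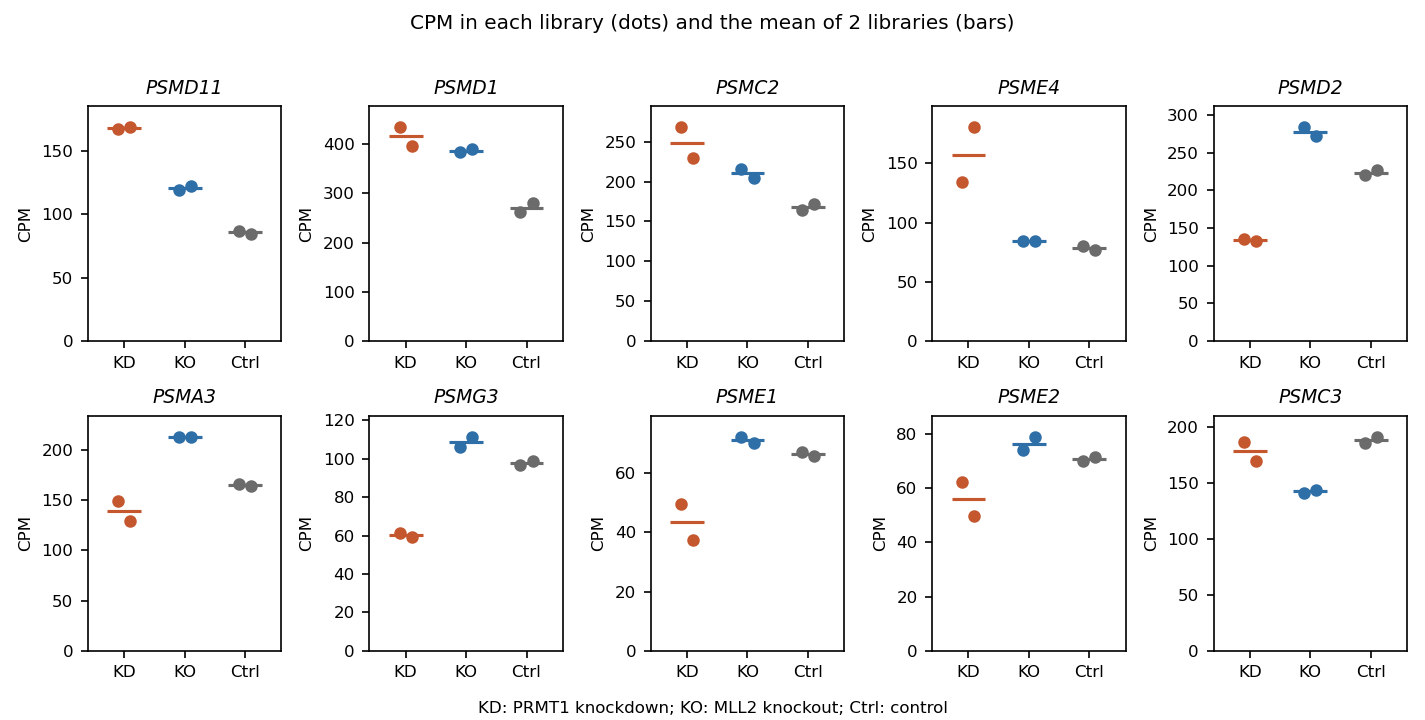
CPM of 10 proteasome genes in each library (dots) with the mean of the 2 libraries (bars) in PRMT1 knockdown, MLL2 knockout and control cells; each axis starts at 0. PSMD11, PSMD1 and PSMC2 are highest in the knockdown, PSMD2 has 135 and 133 CPM in the knockdown and 284 and 272 CPM in the knockout, and PSMC3 is lowest in the knockout.

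Exon length, that of all annotated exons of a gene together, moved with the knockdown values. The length of the transcript expressed was not used. Among tested genes other than members with an average log2 CPM over 2, the median log2 change in the knockdown was -0.45 below 1000 nt of exons, -0.37 from 1000 to 2000 nt, -0.15 from 2000 to 4000 nt, 0.01 from 4000 to 8000 nt and 0.16 above. In the knockout the same medians ran from -0.05 to 0.04. PSME4 with 10392 nt is long and rose, and PSMG3 with 1973 nt, PSME1 with 1776 nt and PSMA7 with 1752 nt are short and fell. PSMG4 with 10415 nt fell against the direction of its class. PSMD11 with 7083 nt rose and PSMD2 with 4960 nt fell, both in the class whose median was 0.01. The 7 members of 1000 to 2000 nt had a median of -0.05, against -0.37 for other genes of that length. After the correction for GC content and length the member median in the knockdown was 0.09 and 8 of the 23 calls were lost, those of PSMA7, PSMC4, PSMD12, PSMD14, PSME2, PSMF1, PSMG1 and PSMG2. PSMA4 then was called lower (-0.24), and PSMB3 (0.43), PSMB5 (0.22), PSMB6 (0.31), PSMC3 (0.19), PSMC5 (0.22) and PSMD8 (0.18) were called higher.

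**Figure D5:**
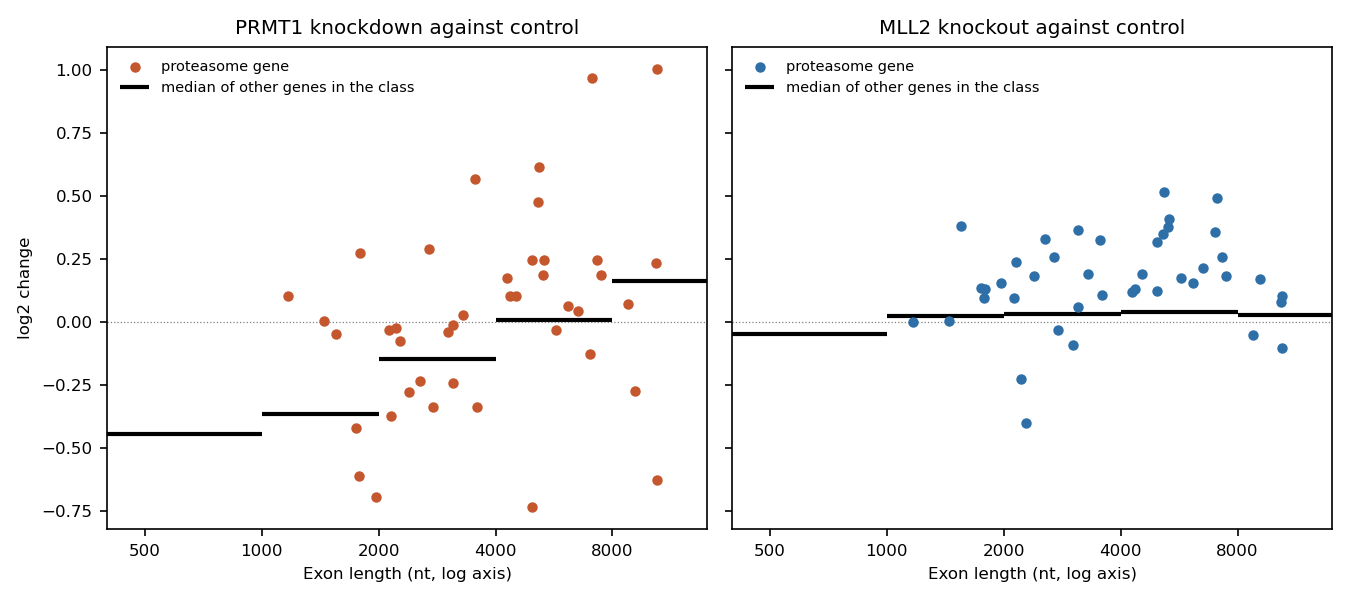
log2 change of proteasome genes (points) against exon length (log axis, in nucleotides) in the PRMT1 knockdown (left) and the MLL2 knockout (right), with the median of other tested genes in each length class as black bars. The bars climb from -0.45 to 0.16 in the knockdown and lie between -0.05 and 0.04 in the knockout.

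Besides the members, proteasome-associated genes outside the symbol rule moved in both directions. Of 12 such genes, 6 were higher and 2 lower in the knockdown, and 1 higher and 1 lower in the knockout (medians 0.18 and 0.13, against -0.04 and -0.01 over all genes), beside shares of 22.2% and 25.3% of all tested genes in the knockdown and 10.3% and 12.1% in the knockout. USP14, a deubiquitinase of the cap, had 45.5 and 56.4 CPM in the knockdown and 29.8 and 32.2 CPM in the control cells (0.72 ± 0.12, adjusted p = 4.02e-05). UCHL5, the other such enzyme, fell in the knockdown (-0.51 ± 0.09), and ADRM1, the ubiquitin receptor that binds it, rose (0.52 ± 0.09). AKIRIN2, which brings proteasomes into the nucleus, had 12.9 and 14.6 CPM in the knockout against 21.4 and 25.8 CPM in the control cells, a fall of -0.78 ± 0.14 (adjusted p = 5.87e-04). In the knockdown it had 29.3 and 32.6 CPM and rose (0.39 ± 0.14, adjusted p = 0.0244). AKIRIN2 lies on chromosome 6, as does PSMB1, and the changes of the genes around AKIRIN2 were not examined. PITHD1, a binder of the proteasome, rose in both depletions.

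Of 15 genes of the pathway that controls subunit transcription through NFE2L1, 7 were higher and 1 lower in the knockdown, and 3 higher and 1 lower in the knockout (medians 0.20 and 0.05). Of all tested genes, 22.2% were higher and 25.3% lower in the knockdown, and 10.3% and 12.1% in the knockout. The genes were listed with earlier results known, and nothing particular to the list is read from the counts. NFE2L1 itself had 104 and 111 CPM in the knockdown, 104 and 115 CPM in the knockout, against 95.9 and 96.2 CPM in the control cells. It was called in neither (0.16 ± 0.09 and 0.19 ± 0.09, adjusted p = 0.134 for both). After the GC and length correction edgeR's test called it higher in both. The changes were then 0.22 in the knockdown (adjusted p = 0.0212) and 0.25 in the knockout (adjusted p = 0.0182). DDI2, the protease that activates NFE2L1, rose in the knockout (0.52 ± 0.11, adjusted p = 0.00172). Without control replicate 2 that change was 0.38 and not called. In the knockdown DDI2 was not called (-0.01 ± 0.11), but it was called lower after the GC and length correction (-0.22, adjusted p = 0.0497). GCLM, a glutathione synthesis gene and classic target of NFE2L2, had 57.4 and 63.9 CPM in the knockdown, 35.8 and 31.7 CPM in the knockout, against 25.6 and 18.3 CPM in the control cells, a rise of 1.47 ± 0.14 in the knockdown. The ligase gene SYVN1 (1.21 ± 0.20) and the repressor gene BACH1 (0.76 ± 0.09) rose in the knockdown, while NFE2L2 was not called (-0.20 ± 0.11, adjusted p = 0.142).

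Of 15 ubiquitin receptors, shuttles and p97 cofactors, which deliver substrates, 10 were higher and 2 lower in the knockdown, and 3 higher and 1 lower in the knockout (medians 0.38 and 0.12). The shares over all tested genes were 22.2% higher and 25.3% lower in the knockdown and 10.3% and 12.1% in the knockout. Of abundant genes (average log2 CPM over 5), 33.6% were higher in the knockdown and 20.9% in the knockout. The count in the knockout is near the background. ZFAND2A (1.22 ± 0.16), the p97 cofactors NPLOC4 (0.69 ± 0.09) and FAF2 (0.59 ± 0.08) and the shuttle UBQLN1 (0.54 ± 0.08) rose in the knockdown. UFD1 (0.48 ± 0.08) and VCP, which encodes p97 itself (0.29 ± 0.08), rose in the knockout, and BAG6 fell (-0.48 ± 0.11). Of 6 ubiquitin and E1 genes, 2 were lower in the knockdown, among them RPS27A (-0.69 ± 0.09), which encodes ubiquitin fused to a ribosomal protein. The count of 2 in 6 is near the 25.3% of all tested genes called lower there. None of the 6 was called in the knockout.

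Of 16 genes of interferon control and antigen loading on MHC class I, 3 were lower and 1 higher in the knockdown, and none was lower and 3 higher in the knockout (medians -0.09 and 0.01). As 25.3% of all tested genes were lower in the knockdown, the count of 3 in 16 lower there is no excess over the background. The share of all tested genes called higher in the knockdown was 22.2%. For the knockout the shares were 10.3% higher and 12.1% lower. Abundant genes, those above an average log2 CPM of 5, were called higher there more often, at 20.9%. The 3 of 16 higher in the knockout are therefore not read as an excess. The falls of HLA-B and TAP1 are those of single genes. HLA-B had 48.2 and 41.9 CPM in the knockdown, 103 and 100.03 CPM in the knockout, against 110 and 114 CPM in the control cells (-1.32 ± 0.09 in the knockdown, adjusted p = 5.81e-10). TAP1, a peptide transporter gene that adjoins PSMB9 on chromosome 6, had 10.2 and 8.91 CPM in the knockdown, 20.4 and 22.8 CPM in the knockout, against 23.5 and 22.6 CPM in the control cells (-1.27 ± 0.15, adjusted p = 7.55e-07). HLA-C fell by a smaller amount (-0.29 ± 0.08), a change that was 0.03 and not called after the GC and length correction. Reads of HLA genes can be lost or misplaced among near-identical copies, so their values are uncertain. The chaperone CALR rose in both depletions (0.50 ± 0.08 in the knockdown and 0.40 ± 0.08 in the knockout).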

How the data were processed

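Total RNA of the 6 libraries was sequenced with a stranded kit, per the labels' protocols. The authors deposited raw counts per gene. Per the file headers, featureCounts 2.0.1 counted read pairs on GENCODE 34 with the strand setting 2 and a minimum mapping quality of 10. The submitters' processing notes list featureCounts 1.5.0-p1, STAR 2.7.5a, Trim Galore 0.6.10 and the build hg38. The counts were tested with edgeR 4.0.16 (TMM scaling, filterByExpr, quasi-likelihood test) in R 4.3.3, in 1 fit of all 6 libraries with a term for the group and 3 residual degrees of freedom. Adjusted p-values are Benjamini-Hochberg values over all 17575 genes tested, called below 0.05, and errors of log2 changes are standard errors. Within a group, values in the text are those of replicate 1 and replicate 2. TPM were computed from the counts and the exon length in the files, which covers all annotated exons of a gene together. Between 20061471 and 22351532 counts per library fell in genes, and floors and intervals cover counting error only. Fits were tested on simulated data.

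The alternatives were relative log expression scaling, DESeq2 1.42.0, other filters, protein-coding genes only, the compared groups alone, the replicate number as a block, spline offsets for exon length and GC content (GENCODE 29), and leaving out each library. The members and gene lists were chosen with earlier results of these data known. Values in every library are given for called members, for members that failed the filter and for the pairs of constitutive and inducible catalytic subunits. Of each other list, the genes named are up to 4 with the smallest adjusted p in either depletion. AKIRIN2, DDI2, NFE2L1, NFE2L2, UFD1, VCP, BAG6 and HLA-C were added after their values were seen, as was the interferon response motif. Protein sequences were not used here, and single values of some listed genes are not reported here.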

Additional observations from a re-analysis of the deposited data

How the results depend on the processing

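With 2 libraries a group, every p-value rests on a spread pooled over the groups. In the knockout the count of members called was 22 (20 higher) with the compared groups alone, and the count called lower was 1 with at least 1 CPM in 2 libraries. In the knockdown 7 members were lower with the compared groups alone. Against the knockout, 11 members were higher in the knockdown after the correction for GC content and exon length. Leaving out each library in turn gave 1908 to 5492 genes and 4 to 22 members called in the knockout (3 to 19 higher, 1 to 3 lower), 12 to 22 members called in the knockdown (5 to 13 higher, 5 to 16 lower), and 2 to 9 members higher in the knockdown than in the knockout. Among values called before or after it, the GC and length correction turned the sign in the knockdown for PSMB5 (0.22), PSMC3 (0.19), PSMD8 (0.18) and HLA-C (0.025), and in the knockdown against the knockout for PSMB6 (0.30) and UBB (0.21). In the knockdown PSMA6 (-0.08), PSMB1 (0.07), PSMB4 (0.14) and PSMD4 (0.13), called in neither fit, turned sign as well. The cause was not tested. With the replicate number as a block, 15 members (4512 genes) were called in the knockout, 23 members (8710 genes) in the knockdown and 21 members (7529 genes) in the knockdown against the knockout. Deviations of libraries with the same number correlated at 0.05 to 0.20 across 11376 genes, and no label says that the numbers pair the libraries.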
